A study of Mus musculus with 6 samples.

Results

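The 51 genes described here encode the structural proteins of the extracellular matrix that hold the lung together: 21 collagens, 13 genes of elastic fibres and of collagen and elastin crosslinking, and 17 laminins and other matrix genes. They were found as all array probes that the platform annotation assigns to the listed genes, by current symbol or alias. The annotation used here names a probe for 45 of them, 110 probes of the 45281 on the array, and 42 genes, read by 76 probes, were bright enough to be tested. Whole lungs of mouse embryos at E18.5, just before birth, were profiled on Illumina mouse WG-6 v2.0 BeadChips, with 1 lung per array. In 3 R26Foxf1; Tie2-cre embryos, cre recombinase from the Tie2 (Tek) promoter had opened a Foxf1 knock-in allele at the ROSA26 locus in endothelial and hematopoietic cells. The 3 control embryos carried the same R26-LSL-Foxf1 allele, kept silent by a lox-stop-lox cassette, without cre. All groups thus share the knock-in allele, both lines derive from C57BL/6 stock, and litter, sex and chip are not given in the labels. The labels call the lungs biological replicates, and the 3 lungs per group limit the precision.

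Collagens form the tensile scaffold of the lung. Fibrillar collagens assemble into fibres in the walls of airways and vessels, collagen IV builds the sheet-like network of basement membranes, and collagen VI forms beaded filaments next to cells. Elastin is laid down on microfibrils and joined into elastic fibres by lysyl oxidases, and these fibres give the lung its recoil. Laminins form the second network of basement membranes, and nidogens and the proteoglycan perlecan link it to collagen IV. In the lung the shared basement membrane of capillary endothelium and alveolar epithelium is part of the barrier across which gas is exchanged. Mesenchymal cells make most fibrillar collagen and elastin, while endothelium and epithelium make much of the basement membrane.

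The sequence just upstream of the gene is shown for 4 members. Nid1 and Col13a1 hold the probes that passed the test, and Col18a1 had the next largest positive difference among the collagens by brightest probe. Of the 31 members with a promoter window, Col6a1 alone held the forkhead core, the kind of sequence that proteins of the FOX family bind. Capitals mark matches on either strand to the forkhead core, spelled TGTTTAC, to the GC box, spelled GGGCGG, to the TATA box, spelled TATAAA, and to the CCAAT box, spelled as its name. The sequences come from RefSeq (GRCm38.p6), written 5′ to 3′ on the strand of the gene and ending before its outermost annotated start. Nid1 lies on the plus strand (chr13:13437352-13437601), and Col13a1 (chr10:61979207-61979358), Col18a1 (chr10:77166531-77166780) and Col6a1 (chr10:76726045-76726294) on the minus strand.
Nid1: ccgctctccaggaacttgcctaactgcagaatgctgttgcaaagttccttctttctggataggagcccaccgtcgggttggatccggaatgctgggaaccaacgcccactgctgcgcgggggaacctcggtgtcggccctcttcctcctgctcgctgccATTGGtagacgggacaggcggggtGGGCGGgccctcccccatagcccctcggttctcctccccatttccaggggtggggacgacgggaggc
Col13a1: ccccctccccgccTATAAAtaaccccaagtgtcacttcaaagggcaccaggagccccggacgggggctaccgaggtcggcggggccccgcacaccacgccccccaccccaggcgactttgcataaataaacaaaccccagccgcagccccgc
Col18a1: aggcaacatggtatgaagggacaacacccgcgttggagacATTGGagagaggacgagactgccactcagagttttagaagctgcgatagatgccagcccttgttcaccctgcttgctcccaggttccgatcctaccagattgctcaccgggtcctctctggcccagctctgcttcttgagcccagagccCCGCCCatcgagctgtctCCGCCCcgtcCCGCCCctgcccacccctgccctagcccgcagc
Col6a1: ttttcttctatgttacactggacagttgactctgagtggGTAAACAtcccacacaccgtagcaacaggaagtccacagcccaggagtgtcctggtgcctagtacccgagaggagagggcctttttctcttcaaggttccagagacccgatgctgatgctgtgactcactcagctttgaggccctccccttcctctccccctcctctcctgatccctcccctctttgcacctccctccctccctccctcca
For 31 members 40 promoter windows were searched, each from 250 bases before to 50 after a start. The forkhead core was present in 1 of the 40, that of Col6a1, and in 3.65% of 32851 mouse promoter windows. A GC box was found in 22 of the 40 windows (20 genes) and in 35.7% of all windows. A CCAAT box was found in 12 of the 40 (12 genes) and in 37.4% of all windows. For the TATA box it was 5 of the 40 (4 genes) and 13.6% of all windows. These matches describe the letters in the windows only.

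Foxf1 itself, by its tested probe, ran from 10.77 to 10.93 on the log2 scale with cre and from 10.15 to 10.77 without it. The difference of 0.31 did not pass the test (adjusted p = 0.285 from limma). Whether this probe reads the knock-in transcript was not tested. The study reported Foxf1 overexpression in E18.5 lungs with cre by qRT-PCR, and increased FOXF1 staining. Lung identity was plain in every array, since the alveolar markers Sftpc (14.18 to 14.44) and Ager (13.43 to 13.96) were bright. The lungs also differed in the markers of tissue that lies beside the lung. The summed signal of 9 skeletal muscle genes ranged from 2680 to 11960 in R26Foxf1; Tie2-cre lungs and from 15890 to 85240 in controls, with control replicate 2 highest. The lymphocyte genes Cd3e and Rag1 were detected only in control replicates 1 and 2. Of the cell types that make matrix, the summed signal of 11 fibroblast and mesenchyme markers was 28370 to 29540 against 30370 to 31530 in controls, and 5 of the 11 had a higher mean with cre. Thy1, which T cells also express, was high in control replicates 1 and 2 (11.08 and 12.15, against 8.33 to 9.19 in the other lungs). Without it the sums overlapped (27780 to 29220 against 25830 to 30680), and so they did without Tcf21 (16950 to 18700 against 17570 to 19980). The sum of 9 endothelial markers was 44260 to 47610 against 38220 to 42590, but this separation rested on the bright Egfl7 (14.17 to 14.24 against 13.78 to 13.90), without which the sums overlapped (25490 to 28330 against 24160 to 27380). Kdr, a listed endothelial marker that encodes FLK1, was detected on no array and is not in these sums. The study reported diminished FLK1 staining in E18.5 R26Foxf1; Tie2-cre lungs. Of the 9 endothelial markers 7 had a higher mean with cre (77.8%, against 57.7% of all genes). Of these, 3 had an unadjusted p under 0.05 and a fold of at least 1.2 (33.3% of the 9, against 11.8% of all genes), and none passed the test. The sums of 10 smooth muscle and pericyte markers overlapped. In whole lungs, fewer cells of a type and less RNA per cell cannot be told apart, and the part of these differences in the results that follow was not tested.

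The matrix genes as a set stayed near their control levels. A probe was called when its adjusted p from limma was under 0.05 and its fold change was at least 1.2. Of the 76 tested probes, 2 were called higher in R26Foxf1; Tie2-cre lungs, 1 for Col13a1 and 1 for Nid1, and 0 were called lower. Over the whole array 2.43% of the 20118 tested probes were called higher and 2.09% lower, so the share of the matrix probes called higher, 2.63%, was near the background. At an unadjusted p under 0.05 with the same fold limit, 22 matrix probes were counted, against 5009 over the array. Both called probes are annotated to a cDNA clone, as are 8 of the 76, and not to a RefSeq transcript. Across the array 12.4% of the tested cDNA-clone probes were called and 3.42% of those annotated to RefSeq.

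When each gene was represented by its brightest tested probe, the mean of 25 of the 42 genes was higher in the R26Foxf1; Tie2-cre group and that of 17 was lower. The median log2 fold change was 0.04, close to the 0.05 of all 11080 tested genes, of which 57.7% had a higher mean. In 7 genes all R26Foxf1; Tie2-cre lungs stood above all controls (16.7%, against 18.5% of all genes), in 4 they stood below (9.52%, against 10.9%), and in 31 the groups overlapped. At an unadjusted p under 0.05 with a fold of at least 1.2, 6 genes were higher and 5 lower (14.3% and 11.9%), against 11.8% and 8.57% of all genes. The subgroups had similar medians: 0.05 for 18 collagens, 0.02 for 9 genes of elastic fibres and crosslinking, and 0.07 for 15 laminins and other matrix genes. The median difference from the 6-lung mean of each gene, taken over all 42 genes, lay between −0.03 and 0.07 for the lungs with cre and between −0.02 and 0.02 for the controls. Among the subgroups the R26Foxf1; Tie2-cre lungs varied most in the elastic genes, from −0.10 in replicate 3 to 0.10 in replicate 2, and the controls then lay within that range.

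**Figure D1:**
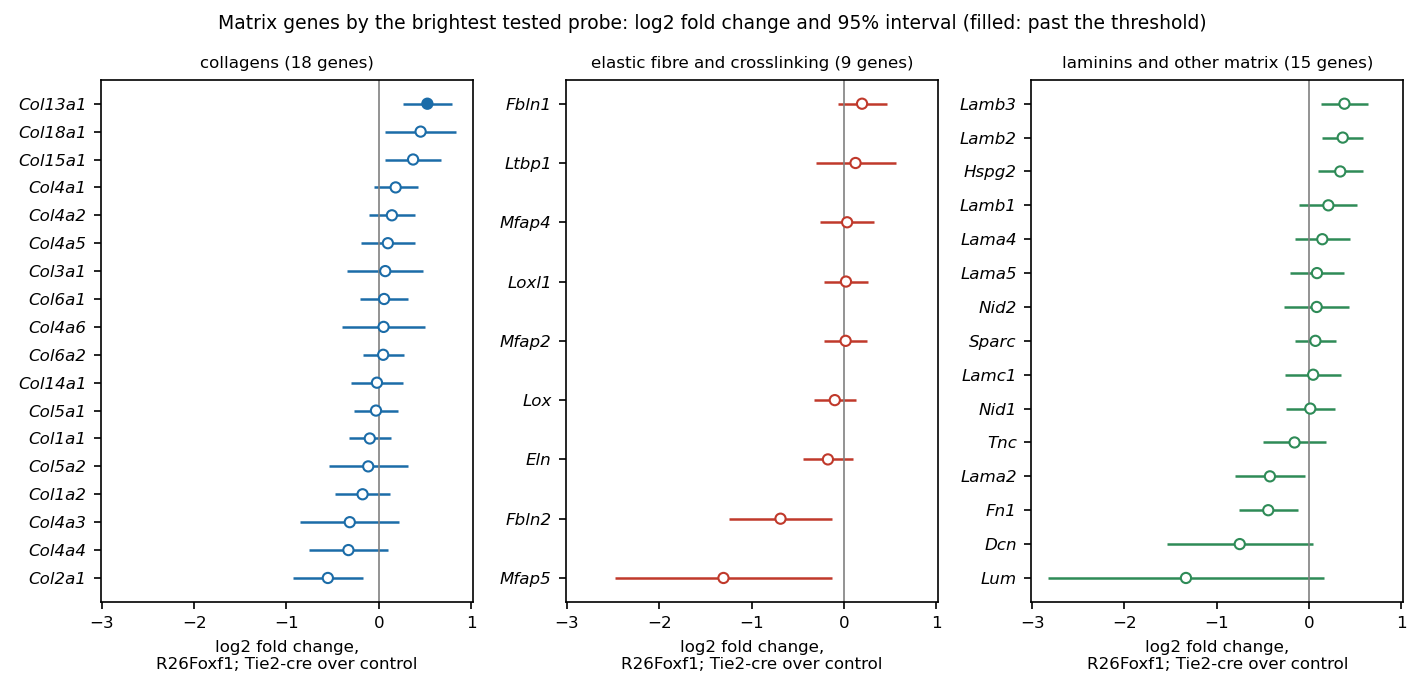
Log2 fold change of each tested matrix gene (R26Foxf1; Tie2-cre over control, brightest probe, 3 lungs per group), with its 95% interval from limma, in 3 panels for collagens, elastic fibre and crosslinking genes, and laminins and other matrix. The filled point is Col13a1, the single gene past the threshold by its brightest probe, and the intervals of Mfap5, Dcn and Lum are by far the widest.

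Among the fibrillar collagens, which make the load-bearing fibres, 1 of 6 tested genes had a higher mean (16.7%, against 57.7% of all genes). Their median log2 fold change was −0.11, and none passed the threshold. Col1a1 and Col1a2, the chains of collagen I, had log2 fold changes of −0.10 and −0.18, Col3a1 one of 0.07 and Col5a1 one of −0.03, all with overlapping lungs. Col1a1 was bright and even, with 12.81, 12.87 and 12.98 in R26Foxf1; Tie2-cre lungs and 12.92, 12.99 and 13.04 in controls. The 95% interval of its difference ran from −0.33 to 0.13. By the brightest probe only Col2a1, the collagen of cartilage, had groups that did not overlap: 5.56, 5.14 and 5.25 in R26Foxf1; Tie2-cre lungs against 6.05, 5.97 and 5.58 in controls. These are signals at the edge of detection, reached in 1 of 3 R26Foxf1; Tie2-cre lungs and in all controls, and the difference of −0.55 missed the threshold (standard error 0.16, adjusted p = 0.0907 from limma). On the deposited values, which compress dim signals, it was −0.11. Of 13 cartilage markers 5 were detected on any array, and Acan, Matn1, Comp and Col9a1 were not. Snorc, a proteoglycan of cartilage, was detected in all controls and in no R26Foxf1; Tie2-cre lung. It thus met the detection limit for testing only through the controls, where it was dim. Taking the lowest detected signal as its level with cre, it was lower there by at least 1.3-fold. The summed signal of the 5 detected markers, of which Sox9 was the brightest, was 3512 to 4822 with cre and 3093 to 3357 in controls. Sox9 (0.40, adjusted p = 0.140), which lung epithelium also expresses, Hapln1 (0.12) and Col9a2 (−0.07) did not pass. The part of cartilage in the Col2a1 signal was not tested. Col11a1, another cartilage collagen, was detected by 1 of its probes in control replicate 3 only (5.40) and was not tested.

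Col5a2, the partner of Col5a1 in the thin core of collagen I fibres, was read in opposite directions by its probes. The brighter probe gave 8.62, 8.43 and 8.27 in R26Foxf1; Tie2-cre lungs and 8.34, 8.38 and 8.95 in controls (−0.12, adjusted p = 0.729). The dimmer gave 7.21, 7.33 and 6.99 against 6.68, 6.85 and 6.48, with every R26Foxf1; Tie2-cre lung above every control (0.50, standard error 0.14, adjusted p = 0.0768). Neither passed the threshold, and the sign of the brighter probe rested on control replicate 3, without which it was 0.08.

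Collagen VI showed no shift by its bright probes. Col6a1 had 14.33, 14.27 and 14.04 in R26Foxf1; Tie2-cre lungs and 14.24, 14.08 and 14.15 in controls (0.06, adjusted p = 0.785), and Col6a2, its neighbour on chromosome 10, had a log2 fold change of 0.05. The sign for Col6a1 turned under median scaling (−0.0021) and cyclic loess (−0.081). The dimmest probe of Col6a1 had 6.01, 5.56 and 5.78 against 6.69, 5.78 and 6.81, a difference of −0.64 (adjusted p = 0.183). There controls 1 and 3 stood high and control 2 lay level with the R26Foxf1; Tie2-cre lungs. The annotation used here names no probe for Col6a3.

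In collagen IV no chain passed the threshold (0 of 6 at an unadjusted p under 0.05). Col4a1 had 14.68, 14.86 and 14.80 in R26Foxf1; Tie2-cre lungs and 14.62, 14.67 and 14.50 in controls. Each R26Foxf1; Tie2-cre lung was above each control by a small margin (0.18, 95% interval −0.06 to 0.42, adjusted p = 0.299 from limma). Col4a2, which pairs with Col4a1 and is its neighbour on chromosome 8, had a log2 fold change of 0.14 with overlapping lungs. Col4a3 and Col4a4, chains made by alveolar epithelium and neighbours on chromosome 1, had −0.31 and −0.33. Col4a4 stood at 8.92, 8.96 and 8.36 against 9.18, 8.86 and 9.19 (adjusted p = 0.296), with R26Foxf1; Tie2-cre replicate 3 lowest in both genes. Its dimmer probes gave −0.08 and 0.22. Col4a5 and Col4a6, neighbours on the X chromosome, had 0.10 and 0.05.

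Among the remaining collagens 1 gene passed the test, by its 1 tested probe. Col13a1, a collagen anchored in the cell membrane at sites of adhesion, stood at 8.35, 8.48 and 8.23 in R26Foxf1; Tie2-cre lungs and at 7.93, 7.86 and 7.70 in controls. The groups did not overlap, with means of 8.35 ± 0.13 (SD, n = 3) and 7.83 ± 0.12 (SD, n = 3). This probe, annotated to a cDNA clone, rose 1.44-fold, or by 0.53 on the log2 scale with a standard error of 0.11 (adjusted p = 0.0483 from limma). The other probe of Col13a1, annotated to RefSeq, was detected in no lung and was not tested, so the rise is of 1 probe. The call is close to the threshold, and it was lost without any 1 of the 6 lungs and after cyclic loess, while the log2 fold change stayed between 0.46 and 0.59 in all of these.
Col18a1, whose C-terminal fragment is the angiogenesis inhibitor endostatin, had 12.59, 12.09 and 12.69 against 12.02, 11.92 and 12.07. All R26Foxf1; Tie2-cre lungs were above the controls, replicate 2 by little, and the difference of 0.45 missed the threshold (standard error 0.16, adjusted p = 0.137). Its dimmer probe gave 0.41, with overlapping lungs. Without R26Foxf1; Tie2-cre replicate 2 the difference was 0.64 (adjusted p = 0.0511), and the dimmer probe then passed.
Col15a1, the closest relative of Col18a1 and a collagen of vascular and muscle basement membranes, had 10.62, 10.44 and 10.87 against 10.29, 10.36 and 10.17. The groups were again separate, by 0.37 (standard error 0.13, adjusted p = 0.129). Col14a1, which decorates collagen fibres, differed by −0.02 by its brightest probe and by −0.30 by the other (adjusted p = 0.195). No probe is named for Col12a1.

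**Figure D2:**
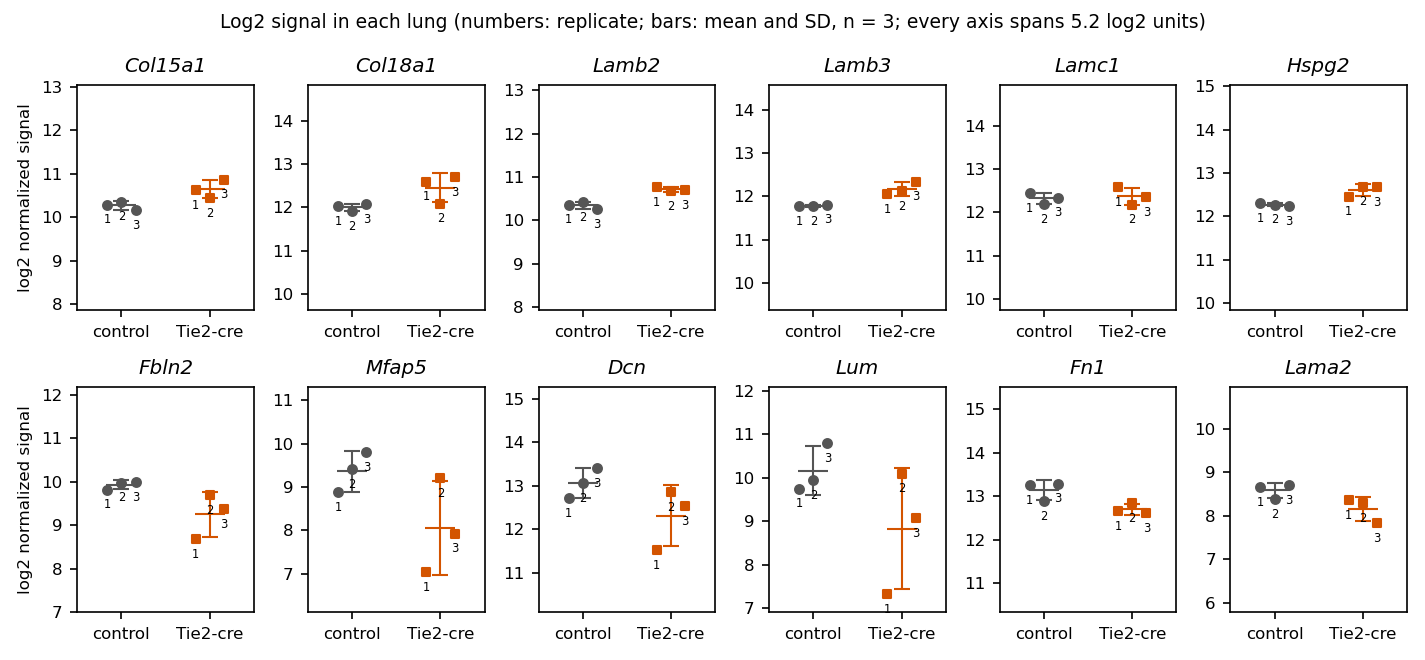
Log2 normalized signal of 12 matrix genes (brightest probe) in each of 3 control lungs (circles) and 3 R26Foxf1; Tie2-cre lungs (squares), numbered by replicate, with the mean and SD; every vertical axis spans the same number of log2 units. In the upper row the R26Foxf1; Tie2-cre lungs lie slightly above the controls except for Lamc1, and in the lower row R26Foxf1; Tie2-cre replicate 1 is far below the others for Fbln2, Mfap5, Dcn and Lum.

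Of the genes for elastic fibres, elastin itself did not differ beyond the spread. Eln had 14.03, 13.94 and 13.71 in R26Foxf1; Tie2-cre lungs and 14.13, 13.98 and 14.08 in controls (−0.17, standard error 0.12, 95% interval −0.44 to 0.10, adjusted p = 0.374 from limma). A dim second probe of Eln gave 0.26. Lox, the lysyl oxidase that starts the crosslinking of elastin and collagen, had 13.53, 13.37 and 13.36 against 13.47, 13.57 and 13.52. The groups overlapped and differed by −0.10 (adjusted p = 0.557). Loxl1, a lysyl oxidase that acts on elastin, differed by 0.02, and no probe is named for Loxl2.

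The microfibril genes fell into a steady set and 1 variable gene. Mfap2 by its brightest probe stayed between 11.91 and 12.14, the lowest and the highest control, in all 6 lungs, with a difference of 0.02 (adjusted p = 0.929) whose sign turned without R26Foxf1; Tie2-cre replicate 3 or control replicate 1. Its other probes stood on opposite sides with groups that did not overlap, at 0.19 (adjusted p = 0.279) and −0.27 (adjusted p = 0.141), neither past the threshold. Mfap4 and Ltbp1, which binds latent TGF-beta to the matrix, differed by 0.03 and 0.13.
Mfap5, a microfibril glycoprotein of vessel walls and connective tissue, varied far more than the rest: it had 7.04, 9.20 and 7.92 in R26Foxf1; Tie2-cre lungs and 8.87, 9.41 and 9.80 in controls. R26Foxf1; Tie2-cre replicate 2 lay among the controls and the other R26Foxf1; Tie2-cre lungs below them. The difference of −1.30 had a standard error of 0.50 and missed the threshold (adjusted p = 0.154). The annotation used here names no probe for the fibrillins Fbn1 and Fbn2.

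The fibulins, which bridge elastin and microfibrils, did not move together. Fbln1 had 11.43, 11.54 and 11.36 against 11.27, 11.39 and 11.09 by its brightest probe, with 1 pair of lungs out of order, and differed by 0.20 (adjusted p = 0.315). The other 3 probes of Fbln1 gave 0.32, 0.08 and −0.29. Fbln2, found in vessel walls and basement membranes, had 8.68, 9.69 and 9.37 against 9.82, 9.98 and 9.99. Every R26Foxf1; Tie2-cre lung was below every control, replicate 1 most of all. The controls had an SD of 0.10 and the R26Foxf1; Tie2-cre lungs one of 0.52, and the difference of −0.69 missed the threshold (standard error 0.24, adjusted p = 0.123). Without R26Foxf1; Tie2-cre replicate 1 it was −0.40. Fbln5 was detected in no lung and was not tested.

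Among the laminins, the mean of 6 of 7 tested genes was higher in the R26Foxf1; Tie2-cre group (85.7%, against 57.7% of all genes). None passed the threshold. At an unadjusted p under 0.05 and a fold of at least 1.2, 2 were higher and 1 lower. These are 28.6% and 14.3%, against 11.8% and 8.57% of all genes. Lamb2, the beta chain of vascular and muscle basement membranes, had 10.77, 10.68 and 10.69 in R26Foxf1; Tie2-cre lungs and 10.37, 10.42 and 10.26 in controls. The groups were well apart (0.36, standard error 0.10, adjusted p = 0.0702 from limma). Lamb3, a chain of the laminin under epithelium, had 12.05, 12.11 and 12.34 against 11.77, 11.78 and 11.81. The controls had an SD of 0.02 and lay below every R26Foxf1; Tie2-cre lung (0.38, standard error 0.11, adjusted p = 0.0828). On the deposited values both genes passed, with adjusted p = 0.0342 for Lamb2 and 0.0377 for Lamb3.
Lamc1, the gamma chain shared by most laminins, was read by probes of near equal brightness that differed. The brightest had 12.58, 12.18 and 12.35 against 12.44, 12.20 and 12.34, with full overlap (0.04, adjusted p = 0.860). The other had 12.51, 12.49 and 12.46 against 12.19, 12.22 and 11.89, with no overlap (0.38, adjusted p = 0.0957). The remaining chains with higher means, Lamb1, Lama4 and Lama5, differed by 0.21, 0.14 and 0.09 with overlapping lungs.
Lama2, the alpha chain of muscle basement membrane, was the 1 tested laminin with a lower mean. It had 8.36, 8.29 and 7.84 against 8.67, 8.38 and 8.71. The groups did not overlap (−0.42, standard error 0.16, adjusted p = 0.156), with R26Foxf1; Tie2-cre replicate 3 lowest and without it a difference of −0.26. The summed signal of skeletal muscle markers was also lower in every R26Foxf1; Tie2-cre lung, as given above. Control replicate 2 had the highest sum (85240) and the lowest Lama2 of the controls. R26Foxf1; Tie2-cre replicate 1 had the lowest sum (2680) and the highest Lama2 of its group. The part of muscle in the Lama2 difference was not tested. No probe is named for Lama3.

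Nid1 encodes nidogen-1, which joins the laminin and collagen IV networks, and its probes disagreed. The probe annotated to a cDNA clone had 9.28, 9.34 and 9.40 in R26Foxf1; Tie2-cre lungs and 8.57, 8.65 and 8.57 in controls. The groups lay far apart relative to their spread, and this probe rose 1.68-fold, or by 0.74 on the log2 scale with a standard error of 0.09 (adjusted p = 0.0258 from limma). The brighter RefSeq probe had 11.66, 11.59 and 11.33 against 11.50, 11.51 and 11.53. Its lungs overlapped and it differed by 0.01 (standard error 0.11, adjusted p = 0.956), with a 95% interval of −0.25 to 0.28 that does not reach the value of the cDNA-clone probe. Whether the probes read different transcripts was not tested, and the rise is thus of 1 probe, not of Nid1 as a whole. The call on that probe was lost without R26Foxf1; Tie2-cre replicate 1 or 3 or control replicate 1 or 3, with a log2 fold change of 0.72 to 0.77.
Hspg2, which encodes perlecan, was read alike by both of its probes. The brighter had 12.45, 12.68 and 12.68 against 12.30, 12.27 and 12.23, and the groups did not overlap (0.34, standard error 0.10, adjusted p = 0.0981). The other gave 0.35 (adjusted p = 0.101). On the deposited values the brighter probe passed (0.36, adjusted p = 0.0401). Nid2 differed by 0.08 with overlapping lungs.

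**Figure D3:**
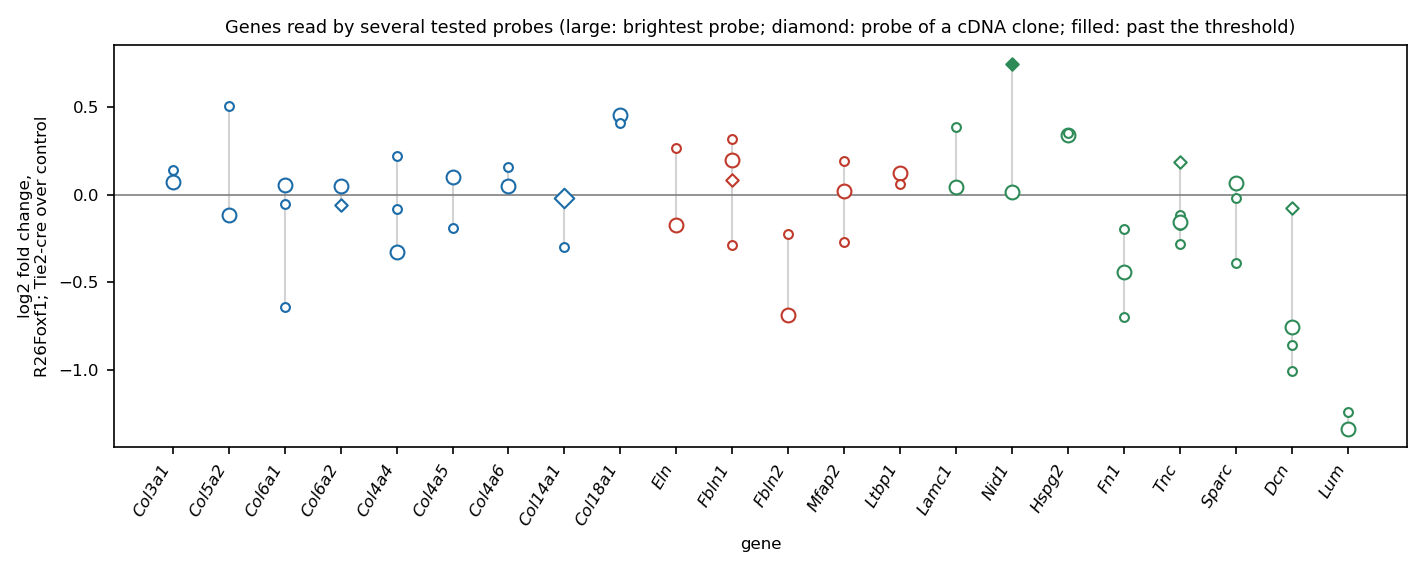
Log2 fold change (R26Foxf1; Tie2-cre over control) of every tested probe of the 22 matrix genes read by more than 1; large symbols are the brightest probe of a gene, diamonds are probes annotated to cDNA clones, and the filled symbol is the Nid1 probe past the threshold. In 10 of the genes the probes lie on both sides of 0, while the probes of Hspg2, Col18a1 and Lum lie close together.

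Grouped after their values were seen, and therefore with no test, the basement membrane genes (collagens IV, XV and XVIII, laminins, nidogens and perlecan) had a higher mean in 15 of 18 genes, with a median of 0.12. Of these, 6 stood above all controls (33.3%, against 18.5% of all genes) and 1 below (5.56%, against 10.9%). A higher mean was found for 83.3% of them and for 57.7% of all genes. The other 24 members had a higher mean in 10 genes and a median of −0.06, with 1 above all controls and 3 below. Over all tested genes the median was 0.05. Under median scaling the basement membrane genes had a higher mean in 15 of 18 and under cyclic loess in 14 of 18, with medians of 0.20 and 0.07. All genes then had medians of 0.13 and 0.01, and higher means in 68.9% and 51.7%.

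Fn1, the gene for fibronectin, which cells bind as they lay down matrix, had 12.65, 12.85 and 12.60 in R26Foxf1; Tie2-cre lungs and 13.25, 12.89 and 13.29 in controls. The groups did not overlap, though R26Foxf1; Tie2-cre replicate 2 and control replicate 2 were almost level (−0.44, standard error 0.14, adjusted p = 0.101 from limma). All 3 probes of Fn1 had lower means, the dimmer by −0.20 and −0.70. Without control replicate 2 the brightest probe passed (−0.57, adjusted p = 0.0406).
Sparc, a collagen-binding matricellular protein, was read by probes that differed in sign. Its brightest probe had 14.26, 14.19 and 14.09 against 14.09, 14.13 and 14.13 (0.07, adjusted p = 0.684). The next had 12.97, 13.15 and 13.14 against 13.52, 13.36 and 13.55, with no overlap (−0.39, standard error 0.11, adjusted p = 0.0767), and the dimmest differed by −0.02. On the deposited values the probe without overlap passed (−0.42, adjusted p = 0.0308), whereas 0.07 by the brightest did not (adjusted p = 0.593). After cyclic loess the sign of the brightest probe turned (−0.067). Tnc, which encodes the tenascin of developing airways, differed by −0.16 with overlapping lungs. Postn was detected in no lung and was not tested.

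The proteoglycans that coat collagen fibres and set their width had some of the largest differences of all members, and also some of the largest spreads between lungs. Lum, which encodes lumican, had 7.32, 10.09 and 9.07 in R26Foxf1; Tie2-cre lungs and 9.75, 9.94 and 10.80 in controls. The groups overlapped, because R26Foxf1; Tie2-cre replicate 2 was above controls 1 and 2. The difference of −1.33 had a standard error of 0.64 (adjusted p = 0.233). Dcn, which encodes decorin and is the neighbour of Lum on chromosome 10, had 11.52, 12.86 and 12.54 against 12.71, 13.06 and 13.40 (−0.75, standard error 0.34, adjusted p = 0.209). Its lungs overlapped as well, and 2 dimmer probes that did not overlap gave −0.85 (adjusted p = 0.111) and −1.01 (adjusted p = 0.155). A probe of Dcn annotated to a cDNA clone differed by −0.08.
Dcn, Lum, Mfap5 and Fbln2 ordered the lungs alike at the ends. In each of them R26Foxf1; Tie2-cre replicate 1 was lowest, R26Foxf1; Tie2-cre replicate 3 next and control replicate 3 highest. Without R26Foxf1; Tie2-cre replicate 1 the differences shrank to −0.36 for Dcn, −0.58 for Lum and −0.80 for Mfap5. The summed signal of 8 markers of basal and squamous epithelium was also lowest in R26Foxf1; Tie2-cre replicates 1 and 3 and highest in control replicate 3: it was 1066, 4387 and 869.9 in R26Foxf1; Tie2-cre replicates 1, 2 and 3 and 2099, 2339 and 7318 in the controls. Of these 8 markers, Krt5, Krt14, Krt15, Krt4 and Krt13 were highest in control replicate 3, where Krt13 and Krt15 were brightest (11.54 and 11.48). Krt17 and Trp63 were highest in control replicate 2 (9.66 and 8.17, against 8.33 and 6.74 in control replicate 3). Sprr3 was highest in R26Foxf1; Tie2-cre replicate 2. The part of this sum in the order of Dcn, Lum, Mfap5 and Fbln2 was not tested.

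**Figure D4:**
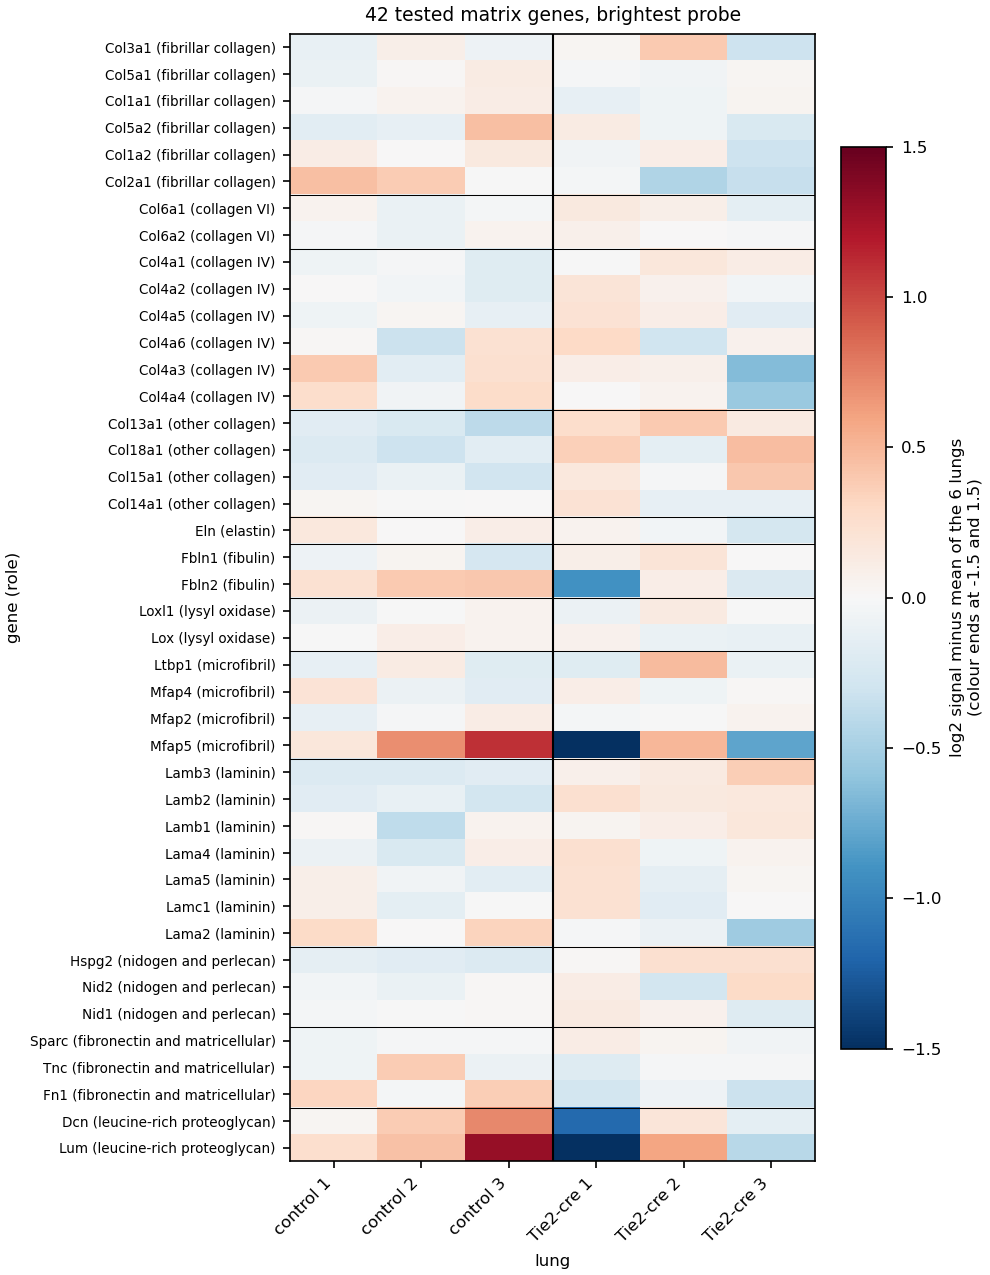
Log2 signal of the 42 tested matrix genes (brightest probe) in each lung minus the mean of that gene over the 6 lungs, as colour from blue (lower) to red (higher), ordered by role, with controls on the left of the black line. The strongest colours are in Mfap5, Dcn and Lum, where R26Foxf1; Tie2-cre replicate 1 is blue and control replicate 3 red. Fbln2 is also blue in R26Foxf1; Tie2-cre replicate 1, and most of the rest of the map is pale.

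Among genes that process or surround the matrix, probes of 4 genes passed the test, P4ha1, Plod3, Lamc3 and Ltbp3. Of 26 tested probes of collagen processing genes 2 were called lower, and of 42 of other matrix genes 3 were called higher. None of the 19 probes of proteases and inhibitors or the 18 of TGF-beta genes was called. Over the whole array 2.43% of tested probes were called higher and 2.09% lower. Of 14 tested enzymes of collagen processing, P4ha1, a subunit of the prolyl hydroxylase that stabilizes collagen, had 1 probe that fell by 0.85 on the log2 scale (7.85, 8.20 and 7.70 in R26Foxf1; Tie2-cre lungs and 8.88, 8.58 and 8.82 in controls, standard error 0.15, adjusted p = 0.0393 from limma). That probe is annotated to a cDNA clone, and the other, annotated to RefSeq and almost as bright, had 8.24, 8.44 and 8.30 against 8.40, 8.45 and 8.07 and differed by 0.01 (adjusted p = 0.955). A dim probe of the lysyl hydroxylase gene Plod3, not its brightest, also fell, with 5.61, 5.75 and 5.84 against 6.30, 6.32 and 6.38 (−0.60, adjusted p = 0.0372), while its brightest probe differed by 0.09 (adjusted p = 0.601). The groups were separate by both probes that fell.
Of 13 tested proteases and inhibitors none passed. At an unadjusted p under 0.05 and a fold of at least 1.2, 2 were higher and 1 lower. These are 15.4% and 7.69%, against 11.8% and 8.57% of all genes. The largest differences by brightest probe were in the gelatinase gene Mmp9 (−0.79, adjusted p = 0.0915) and the inhibitor gene Timp4 (−0.51). Of 11 tested TGF-beta ligands, receptors and targets none passed. By the same unadjusted limits 2 were higher (18.2%, against 11.8% of all genes) and 0 lower. The ligand gene Tgfb2 (0.48, adjusted p = 0.0715) and the signal transducer gene Smad3 (0.30, adjusted p = 0.121) were farthest from 0.
Of 27 other tested matrix genes, the laminin chain gene Lamc3 rose by both of its probes. The brighter had 8.54, 8.38 and 8.39 against 7.77, 7.61 and 7.75, well apart (0.73, standard error 0.10, adjusted p = 0.0287), and the dimmer gave 0.75 (adjusted p = 0.0359). A dimmer, cDNA-clone probe of Ltbp3, a relative of Ltbp1, rose by 0.51 (adjusted p = 0.0441), and its other probes differed by 0.27 (adjusted p = 0.132) and −0.32 (adjusted p = 0.306).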

How the data were processed

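Total RNA of 6 whole lungs at E18.5 was labelled and hybridized by the authors, 1 lung per array. The authors deposited a background-subtracted scanner signal (intensity), with a mean of 508.1 over the 6 arrays together. Per array 25.5% to 28.5% of values were below 0. The deposited detection p-value of each probe ranks it among the negative control probes, in steps that fit 936 controls. The authors also deposited log2-like values from a variance-stabilizing transformation with robust spline normalization, which were used as an alternative. The version of the scanner software is not given in the sources used here.

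Signals were processed with limma 3.58.1 in R 4.3.3 by neqc (background estimated from the detection p-values, offset 16, log2, quantile normalization). Probes detected at p under 0.01 in 3 or more lungs were tested with lmFit and eBayes, with Benjamini-Hochberg adjustment over 20118 probes, and called at an adjusted p under 0.05 and a fold of at least 1.2, the limits in the study's methods. Per lung, 19831 to 20043 probes had a detection p under 0.01. The test was run on simulated data with independent noise for each probe and no differences between lungs shared by many probes. This run does not show which fold changes would be missed in these lungs. Fold changes are R26Foxf1; Tie2-cre over control. A gene was represented by its brightest tested probe. Marker sums add the linear signals of the brightest probe of each gene detected on any array.

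Symbols came from the platform annotation, updated by gene ID (34807 of the 34885 probes with 1 symbol matched, and 18 probes had several). The genes, the lists and the tests were chosen with earlier results of these data known. Values in every lung are given for members past the threshold, for the member with the largest difference in each role, for members with probes of opposite sign and an unadjusted p under 0.05 in 1 of them, and for others chosen after their values were seen (Col1a1, Col4a1, Col15a1, Col18a1, Lamb2, Lamb3, Lamc1, Dcn). Genes of the other lists were named where a probe passed, up to 3 in each direction, or otherwise the 2 with the largest difference.

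The main test treated the lungs as unpaired. Deviations of same-numbered lungs correlated at 0.293, −0.0355 and −0.0269, and those of differently numbered lungs at −0.198 to 0.175. The value of 0.293, for the lungs numbered 1, was the highest of all. With 3 lungs per group these correlations cannot show whether equal numbers mark pairs. The study calls the controls littermates, but the labels do not say which lungs shared a litter. Alternatives in processing were the deposited values, cyclic loess, median scaling and no background correction. Alternatives in filtering and testing were no filter, detection on all 6 arrays, array weights, trended and robust moderation, the methods' t-test, no fold limit, a fold of at least 1.5, unadjusted p values, the mean of the probes of a gene, a replicate block and each lung left out in turn. Leaving out each marker gene of the fibroblast and endothelial sums in turn was added after seeing the data.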

Additional observations from a re-analysis of the deposited data

How the results depend on the processing

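The number of matrix probes called, 2, depended on the processing. It was 7 on the deposited values, 9 with trended and robust moderation, 9 with array weights and 22 with unadjusted p values. It was 1 after cyclic loess, 1 without a filter on dim probes and 1 with a fold of at least 1.5. The methods' t-test on the deposited values called 0 of the matrix probes and 0 of all 20118 (9 matrix probes at an unadjusted p under 0.05). With a replicate block the count was 0, of 46 over the array. With 1 lung left out it ran from 0 to 4, and it was 0 without R26Foxf1; Tie2-cre replicate 1 or 3 or control replicate 1 or 3. These fits compare fewer lungs. The median log2 fold change of the laminins and other matrix genes was 0.13 under median scaling, which put the median of all tested genes at 0.13, and 0.012 after cyclic loess. It ran from −0.0084 to 0.14 with 1 lung left out. The median of the elastic genes was −0.15 after cyclic loess. Among single genes by their brightest probe, the sign turned for Col5a2 without control replicate 3 (0.081, against −0.22 without control replicate 1), Col6a1 under median scaling (−0.0021), cyclic loess (−0.081) and without R26Foxf1; Tie2-cre replicate 1 (−5.1e-05), Mfap2 without R26Foxf1; Tie2-cre replicate 3 (−0.0036) or control replicate 1 (−0.036, against 0.079 without control replicate 3), Nid1 without R26Foxf1; Tie2-cre replicate 1 (−0.053) or 2 (−0.018, against 0.11 without 3), Lamc1 without R26Foxf1; Tie2-cre replicate 1 (−0.062) or control replicate 2 (−0.019), and Sparc after cyclic loess (−0.067). The cause was not tested. Of the comparisons of single genes across alternatives, 236 kept direction and side of the threshold, 13 lost a call, 4 gained one and 11 reversed. Probes near background limit Col2a1, and 9 of the 51 genes could not be measured.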
